A study of Mus musculus with 8 samples.

Results

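Complement genes were examined in ATAC-seq peak lists of mouse retinal ganglion cells (RGCs), the neurons whose axons form the optic nerve. The 9 genes were C1qa, C1qb, C1qc, C3, C4b, C2, Cfb, C3ar1 and C5ar1, of 49943 genes in the annotation. Every merged peak region that lay in one of these genes or within 10 kb of it was taken, which gave 40 of 189914 regions, 10 of them in the C1q cluster on chromosome 4. The list was chosen because C1qb and other genes of microglia had been seen to lack peaks after expression of Ezh2-Y726D, so contrasts with Ezh2-Y726D are described here and carry no test.

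ATAC-seq marks open chromatin by the insertion of a transposase. Adult C57BL/6J mice received an intravitreal injection of AAV2-GFP (3 samples), AAV2-Ezh2 (3 samples) or AAV2-Ezh2-Y726D (2 samples), where Ezh2 is the H3K27 methyltransferase of Polycomb repressive complex 2 and Ezh2-Y726D is its catalytically dead form. All groups had an optic nerve crush 2 weeks after the virus, and CD90.2-positive cells were sorted as RGCs 3 days after the crush, with 50000 cells in each library, so no uninjured or uninjected group stands beside them. The lists held 112939 to 133674 peaks with GFP, 126271 to 135895 with Ezh2, and 124666 and 128728 with Ezh2-Y726D, so the Ezh2-Y726D lists were not the shortest. Read depth was estimated from the step between fold values, which gives the pileup of the background, at 2.69 to 3.74 with GFP, 3.09 to 3.59 with Ezh2, and 2.39 and 3.12 with Ezh2-Y726D. Regions with a peak over the Ezh2 gene itself numbered 3, 5 and 6 with GFP, 8, 10 and 9 with Ezh2, and 4 and 4 with Ezh2-Y726D, which separates Ezh2 from GFP but not Ezh2-Y726D from GFP. Whether DNA of the vector adds to these peaks was not tested, so the counts do not check the labels.

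Complement is a cascade of plasma and tissue proteins that tags targets for removal. C1q, built from the products of C1qa, C1qb and C1qc, starts the classical pathway, in which C4 and C2 form the enzyme that cleaves C3. Factor B, encoded by Cfb, does the work of C2 in the alternative pathway. The fragments C3a and C5a signal through the receptors C3ar1 and C5ar1 on myeloid cells, and in the central nervous system C1q is made mostly by microglia.

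Promoters are shown for the members whose start site lay under a peak in at least 4 lists and under none of the Ezh2-Y726D lists. Each is the 250 bases before the start site on the gene's strand, which is the minus strand for all of them, from RefSeq on GRCm38.p6. C1qb is at chr4:136886201-136886450, C1qc at chr4:136892915-136893164 and C3ar1 at chr6:122856158-122856407. Capitals mark a match to GAGGAA or its reverse complement, a core bound by the myeloid factor PU.1, in C1qb and C1qc, and a match to TGANTCA, the AP-1 motif, in C3ar1.
C1qb: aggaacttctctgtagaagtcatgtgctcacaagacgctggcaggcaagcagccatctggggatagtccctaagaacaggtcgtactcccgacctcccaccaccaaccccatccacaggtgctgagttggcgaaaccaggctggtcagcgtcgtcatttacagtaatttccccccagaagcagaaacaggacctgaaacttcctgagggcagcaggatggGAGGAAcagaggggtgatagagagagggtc
C1qc: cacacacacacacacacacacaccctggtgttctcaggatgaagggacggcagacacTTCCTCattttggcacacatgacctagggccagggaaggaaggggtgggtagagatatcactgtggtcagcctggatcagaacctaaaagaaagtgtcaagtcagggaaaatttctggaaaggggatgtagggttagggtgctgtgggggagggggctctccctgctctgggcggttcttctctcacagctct
C3ar1: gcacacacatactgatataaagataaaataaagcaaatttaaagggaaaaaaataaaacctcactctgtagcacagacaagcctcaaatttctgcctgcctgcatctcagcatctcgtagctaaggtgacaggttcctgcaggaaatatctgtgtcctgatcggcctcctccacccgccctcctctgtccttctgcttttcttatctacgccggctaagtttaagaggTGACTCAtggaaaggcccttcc

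The match in C1qb lay at bases -30 to -25 from the start site, that in C1qc at -193 to -188 on the opposite strand, and that in C3ar1 at -22 to -16. Start sites were known for 2 further members. The C3 promoter held 1 match to the C/EBP motif TTGCNNAA (TTGCGAAA at -45 to -38), and the C5ar1 promoter held none of the 3 motifs. Both strands were searched, and the motifs do not overlap in these windows. Of 32851 promoters of this length, 23.25% held GAGGAA, 6.749% held TGANTCA and 9.564% held TTGCNNAA, so each match is a description of the letters and not of a bound site.

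The start site of C1qb was open in all GFP and Ezh2 samples and had no peak with Ezh2-Y726D. The region at chr4:136885809-136886835 covered all 250 promoter bases shown for C1qb in each of those 6 lists, and 0 bases in both Ezh2-Y726D lists. Peaks were compared by the percentile of their fold enrichment within their own list, on which 100 is the strongest peak. With GFP the percentiles at C1qb were 72.6, 46.7 and 70.1 (63.1 ± 14.3, SD, n = 3), and with Ezh2 they were 83.1, 67.1 and 82.1 (77.4 ± 8.96, SD, n = 3). The values of GFP and Ezh2 overlapped, and these were peaks of middle to upper rank, not peaks near the limit of calling. Folds over background at this region were 4.88 to 6.36 with GFP and 5.95 to 7.99 with Ezh2.

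C1qc, which encodes the third chain of C1q, had a weaker peak in the region around its start site, at chr4:136892810-136893252. It was called in GFP samples 2 and 3, at percentiles 24.7 and 6.45, and in the 3 Ezh2 samples, at 47.6, 9.04 and 33.1. In Ezh2 sample 2 the peak covered 202 of the 250 promoter bases but not the start site itself. GFP sample 1 and both Ezh2-Y726D samples had none. At C1qa a peak over 1 end of the gene, at chr4:136898652-136899076, was called in GFP sample 3 (percentile 6.12) and in Ezh2 samples 1 and 3 (25.2 and 21.6), again in low ranks and not with Ezh2-Y726D.

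Other regions of the C1q locus had a peak with Ezh2-Y726D as well. At 857 bp upstream of C1qc, chr4:136893793-136894485, all 8 lists had a peak, at percentiles 73.1, 58.0 and 63.6 with GFP, 51.9, 77.4 and 62.6 with Ezh2, and 92.3 and 85.4 with Ezh2-Y726D. Both Ezh2-Y726D values here were above every GFP and Ezh2 value. At chr4:136904667-136905824, 5.8 kb beyond C1qa, the order was the other way, with 91.3, 87.3 and 89.5 for GFP, 71.5, 85.4 and 82.6 for Ezh2, and 46.5 and 73.0 for Ezh2-Y726D. The GFP values lay above all Ezh2 values, and the 2 Ezh2-Y726D values differed widely from each other.

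Downstream of C1qb, the region at chr4:136876826-136877521 had a peak in all 8 lists, at percentiles from 50.6 to 81.7, with the groups overlapping. Its neighbour at chr4:136878260-136878865 had one in each of the 6 GFP and Ezh2 lists and, of the Ezh2-Y726D lists, in that of sample 2, where its percentile of 17.3 was below the lowest GFP and Ezh2 value of 33.0. Both Ezh2-Y726D lists had a peak 8.2 kb beyond C1qa, at percentiles 33.5 and 12.6, that no GFP or Ezh2 list held. Of the 10 regions of the cluster, 5, 6 and 7 had a peak with GFP, 7 in each Ezh2 sample, and 5 in each Ezh2-Y726D sample.

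**Figure D1:**
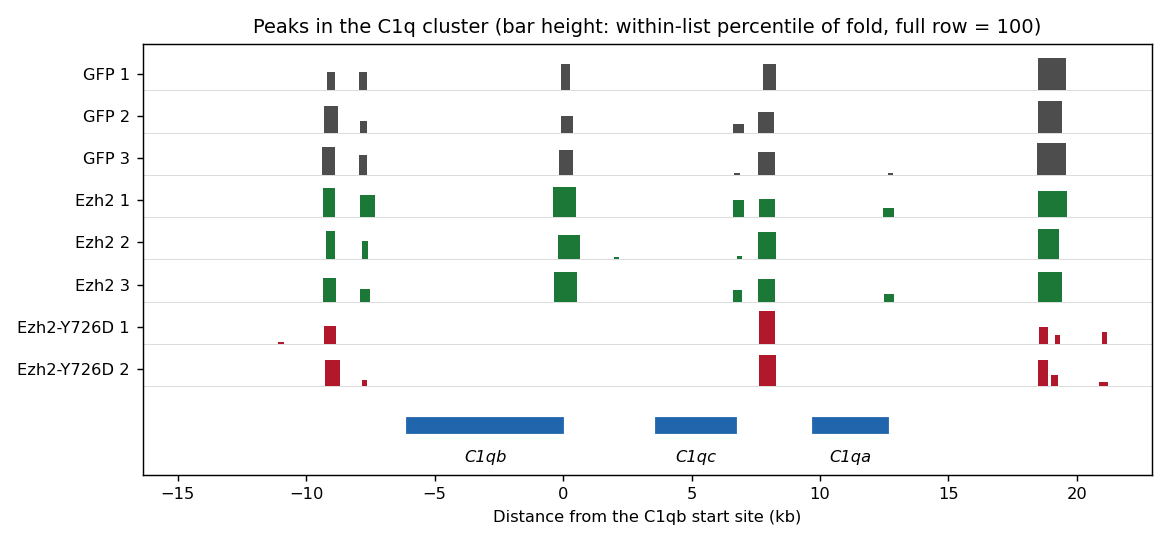
Peaks of each sample (rows) around C1qb, C1qc and C1qa, by distance from the C1qb start site in kb; bar width is peak width, bar height is the within-list percentile of fold (a full row is 100), and blue bars are the genes. The peak at 0 kb is present in the 6 GFP and Ezh2 rows and absent from both Ezh2-Y726D rows, while the peak near 8 kb stands in all 8 rows.

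C3 is the protein on which all complement pathways converge. Its start site, in chr17:57228020-57228432, had a peak in Ezh2 samples 1 and 3, at percentiles 24.2 and 27.1, and in no other list. Inside the gene, chr17:57214400-57215398 was open in all 8 lists, at percentiles 89.5, 87.8 and 84.5 with GFP, 88.2, 82.8 and 85.6 with Ezh2, and 93.3 and 90.9 with Ezh2-Y726D. This was the highest ranked region within C3, and the ranges of GFP and Ezh2 overlapped.

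A further region of C3, chr17:57219079-57220239, also had a peak in all 8 lists, at 81.6, 74.2 and 70.1 with GFP, 71.3, 68.9 and 75.4 with Ezh2, and 50.2 and 60.6 with Ezh2-Y726D, both of the last below all other values. Within the gene, chr17:57209399-57209754 was called in GFP sample 2 (28.7), in all 3 Ezh2 samples (39.2, 37.2 and 61.3) and not with Ezh2-Y726D. The region of the C3 window that had a peak in all GFP and Ezh2 lists and none with Ezh2-Y726D, chr17:57193767-57194981, lay 9.0 kb from C3 and over Tnfsf14, a TNF family cytokine gene. Its percentiles were 71.1, 66.7 and 71.1 with GFP and 78.0, 76.5 and 86.9 with Ezh2, with every Ezh2 value above every GFP value. It cannot be assigned to C3 by position.

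C2 encodes the precursor of a serine protease and is cleaved by C1s, as C4 is. Within the gene, chr17:34879392-34880018 had a peak at percentiles 44.3, 56.0 and 69.5 with GFP and 72.2, 75.0 and 64.4 with Ezh2, and none with Ezh2-Y726D. A second region in C2, chr17:34881432-34882068, went the other way, with peaks of low rank in both Ezh2-Y726D lists (22.9 and 15.1), in Ezh2 sample 1 (10.0) and in no GFP list.

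Cfb neighbours C2, and 2 weak regions within it were called in some GFP or Ezh2 lists only. At chr17:34858691-34858931 the percentiles were 7.53 in GFP sample 3 and 30.0 and 9.50 in Ezh2 samples 1 and 3, and at chr17:34862048-34862475 they were 44.4 and 6.20 in Ezh2 samples 1 and 3. The region over the border of Cfb and Nelfe, chr17:34855812-34856446, was open in all 8 lists, at 61.2, 59.9 and 73.9 with GFP, 81.0, 67.9 and 83.7 with Ezh2, and 57.5 and 80.4 with Ezh2-Y726D, which overlap. The strongest of the 40 regions, 5.5 kb from Cfb at Skiv2l and Nelfe, stayed at percentiles 99.6 to 99.9 in every list.

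C4b differed from the other members. Its region at chr17:34743699-34744264, over 1 end of the gene, had a peak at percentiles 33.0, 59.9 and 69.5 with GFP, at 31.3 and 11.6 in Ezh2 samples 2 and 3, and at 61.4 and 51.4 with Ezh2-Y726D. Ezh2 sample 1 had none, and both Ezh2 values lay below all GFP and Ezh2-Y726D values. C4b has a near-identical neighbour, C4a, and reads shared by the pair could have been dropped by the mapping filter or placed at either gene, so the values at C4b are uncertain.

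C3ar1, the receptor of C3a, was the one member with no peak in its whole window in either Ezh2-Y726D list. It had a peak in 2, 3 and 3 of its 4 regions with GFP, in 4, 2 and 3 with Ezh2, and in 0 of 4 in both Ezh2-Y726D lists. At its start site, chr6:122855957-122856350, the percentiles were 13.8, 41.4 and 29.0 with GFP and 60.9 and 36.1 in Ezh2 samples 1 and 3. At chr6:122854436-122854910 in the gene they were 21.7 and 17.8 in GFP samples 2 and 3, and 53.5, 25.2 and 67.2 with Ezh2, so every Ezh2 value was above both GFP values.

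C3ar1 also had a region 6.6 kb upstream, chr6:122862744-122863315, with a peak in all 6 GFP and Ezh2 lists, at 13.8, 21.7 and 48.0 with GFP and 27.3, 59.0 and 64.4 with Ezh2. These ranks spread widely within each group and overlapped between them. The last region of C3ar1, within the gene, had a peak in Ezh2 sample 1 alone, at percentile 30.8.

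C5ar1, the receptor of C5a, had a peak in 4, 4 and 6 of its 8 regions with GFP, in 8, 4 and 6 with Ezh2, and in 1 of 8 in both Ezh2-Y726D lists. Of the 8, 3 were called in all GFP and Ezh2 lists and in no Ezh2-Y726D list. At chr7:16257756-16258212, in the gene, the percentiles were 57.5, 41.4 and 56.4 with GFP and 62.2, 56.6 and 63.0 with Ezh2. At chr7:16254131-16254708, also in the gene, they were 53.6, 72.3 and 36.3 with GFP and 55.7, 48.7 and 63.7 with Ezh2, which overlap fully.

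The third of these regions, chr7:16244075-16244430, lay 2.3 kb from C5ar1 and over C5ar2, the second receptor of C5a, with percentiles of 38.9, 35.3 and 34.4 with GFP and 58.7, 47.2 and 50.6 with Ezh2. Here every Ezh2 value was above every GFP value. The start site of C5ar1 had a peak in Ezh2 sample 1 alone, at percentile 30.9, and a further region in the gene, chr7:16250715-16251058, was called in GFP sample 3 (12.6) and in Ezh2 samples 1 and 3 (60.9 and 36.1). The one region kept with Ezh2-Y726D, chr7:16262920-16263532, lay 3.4 kb upstream, at 82.5, 69.7 and 67.1 with GFP, 68.6, 67.9 and 80.2 with Ezh2, and 43.0 and 82.0 with Ezh2-Y726D.

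**Figure D2:**
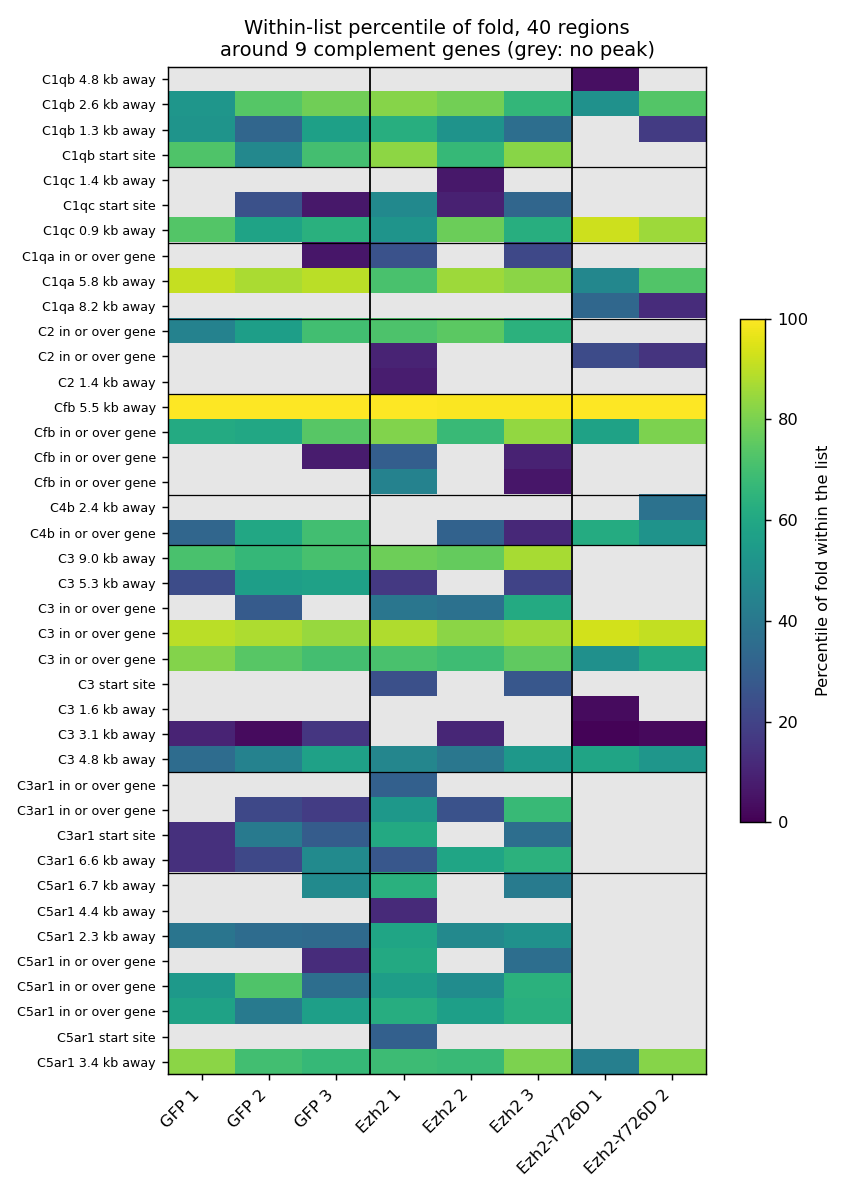
Within-list percentile of fold (colour, 0 to 100) at the 40 regions (rows, grouped by nearest member gene and named by their place relative to it) in the 8 samples (columns); grey cells have no peak. All C3ar1 rows and all but 1 of the C5ar1 rows are grey in both Ezh2-Y726D columns, and 9 rows are filled in all 8 columns.

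Over all 40 regions, the number with a peak was 21, 24 and 27 with GFP (24 ± 3, SD, n = 3), 33, 23 and 29 with Ezh2 (28.3 ± 5.03, SD, n = 3), and 15 and 15 with Ezh2-Y726D (n = 2). The GFP and Ezh2 counts overlapped, and both Ezh2-Y726D counts lay below all others. Of the 17 regions open in each of the 6 GFP and Ezh2 lists, 7 had none in either Ezh2-Y726D list, where 8.54% of all regions open in those 6 lists did so. Among all merged regions that pattern made up 3.61%. In the GFP and Ezh2 lists the 7 regions had a median percentile of 56.2, beside 49.4 for all 6855 regions of this pattern. Because the genes were chosen for it, nothing is read from these shares.

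By gene, 7 of 9 members had such a region within 10 kb, all but C4b and Cfb, and C1qa, C1qb and C1qc share 1 region, the C1qb start site. The share among 21887 protein-coding genes was 17.1%. Within 1 kb the members were C1qb, C2 and C5ar1 (3 of 9), beside 12.4% of protein-coding genes. The reverse pattern, a peak with Ezh2-Y726D and none with GFP or Ezh2, was held by 4 of the 40 regions and by 9.47% of all regions, 3 of the 4 in only 1 or the other Ezh2-Y726D list.

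**Figure D3:**
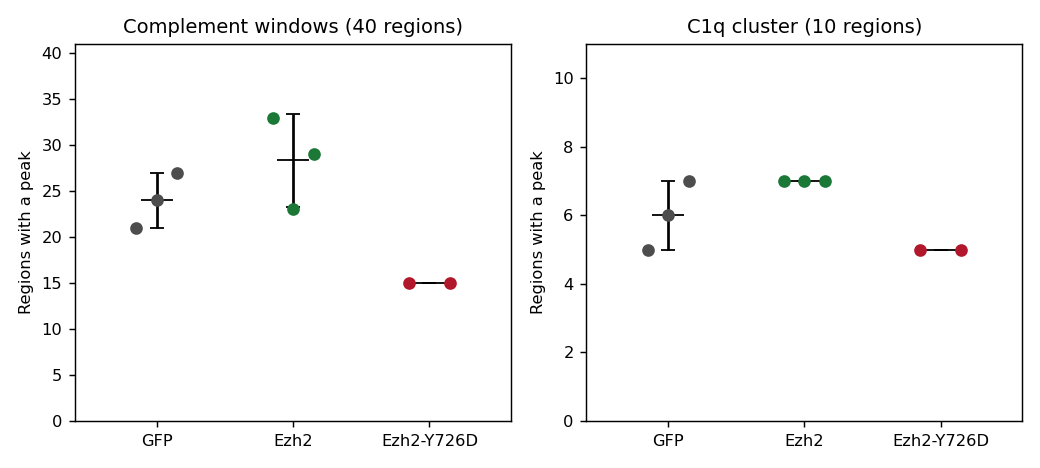
Number of regions with a peak in each sample (points) for the 40 complement regions (left) and the 10 regions of the C1q cluster (right); horizontal marks are group means and error bars are SD, with n = 3 for GFP and Ezh2 and n = 2 for Ezh2-Y726D. Both Ezh2-Y726D points are at 15 on the left and at 5 on the right.

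Whether wild-type Ezh2 changed the rank of these regions was tested with limma on normal scores of the ranks, over the 69493 regions with a peak in all 8 lists. Among all of these, 1.59% were higher and 2.84% lower with Ezh2 than with GFP at an adjusted p under 0.05. Of the 9 member regions tested, none was called and none had an unadjusted p under 0.05. The largest differences were a fall of the region 5.8 kb beyond C1qa (-0.49 ± 0.23, SE, adjusted p = 0.268) and a rise at the Cfb and Nelfe border (0.44 ± 0.24, SE, adjusted p = 0.356), neither past the threshold.

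When only the GFP and Ezh2 samples were fitted, which brings in the regions without a peak under Ezh2-Y726D, 17 member regions could be tested, none was called, and 5.15% of all 80399 regions were. At the C1qb start site the Ezh2 minus GFP difference was 0.44 ± 0.25 (SE, adjusted p = 0.384), and at the upstream region of C3ar1 it was 0.61 ± 0.31 (SE, adjusted p = 0.308). Adjusted p-values over the 17 regions ran from 0.178 to 0.998, with 1 unadjusted p under 0.05, at the region beyond C1qa. Of the differences, 8 were positive and 9 negative, with a median of -0.0021 beside -0.0045 over all regions. In the fit of regions with a peak in all 8 lists, the median was -0.054 for the members and 0.0100 over all regions. A limma fit of regions in at least 5 lists took in regions that lack a peak in some GFP or Ezh2 lists. It tested 23 member regions and called none, with 3 unadjusted p under 0.05 and a median of 0.114 beside 0.0028 over all regions. With 3 samples a group, differences of this size cannot be told from the spread between samples.

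Peaks called with Ezh2 and in no GFP list were found at 8 of the 40 regions, beside 15.7% of all 189914 regions, and at 7 of these no Ezh2-Y726D list had one either, beside 11.1%. The opposite, a peak with GFP and none with Ezh2, was found at 0 of the 40 and at 10.4% of all regions. Ezh2 lists were on the whole longer than GFP lists, and no test was made of these shares. Ezh2 sample 1 had a peak at 7 of these 8. It also had one at the start sites of all 5 members whose start is known, against 1 and 4 in Ezh2 samples 2 and 3, and 2, 3 and 3 with GFP. Over all 32851 start sites, each of the 8 lists had a peak at 46.88% to 49.69%, and the Ezh2-Y726D lists had one at 0 of the 5. Without Ezh2 sample 1, the Ezh2 minus GFP difference in the number of regions with a peak was 2 instead of 4.33. In lists cut to equal length, with all samples, this difference was 3.67.

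Other complement genes were followed as a list of 42, within 1 kb of each gene. A peak was present at 33, 32 and 33 of them with GFP, 33, 31 and 33 with Ezh2, and 26 and 27 with Ezh2-Y726D. A region open in all 6 GFP and Ezh2 samples and absent with Ezh2-Y726D lay within 1 kb of 5 of the 42, namely C5ar2, Itgam, Itgax, Itgb2 and Cd93, which at 11.9% is no more than the 12.4% of protein-coding genes given above. By this share of genes the list did not stand out, but the share takes no account of the number of regions at each gene. Such regions numbered 1 at C5ar2, 2 at Itgam, 1 at Itgax, 3 at Itgb2 and 1 at Cd93, of 99 regions in the list. Among all merged regions the pattern made up 3.61%, and no test was made of these numbers. Itgam, Itgax and Itgb2 encode the chains of the complement receptors CR3 and CR4, which bind cleaved C3 on phagocytes. Itgam had 5, 3 and 5 regions with a peak with GFP, 5, 5 and 5 with Ezh2, and 0 and 0 with Ezh2-Y726D, so both Ezh2-Y726D values lay below all others and GFP and Ezh2 overlapped.

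Of the 42, 14 had no peak within 1 kb in both Ezh2-Y726D lists (33.3%, beside 23.3% of protein-coding genes), and 7 of these 14 had none in any list (20.4% of protein-coding genes). A peak in all 6 GFP and Ezh2 samples and none in both Ezh2-Y726D samples was held by 4 of the 42, C5ar2, Itgam, Itgax and Cd93, and by 0.9% of protein-coding genes. Some regulators had peaks in all groups. Clusterin (Clu), a secreted inhibitor of the terminal complex, had 3 regions with a peak in every list, and Cd55 and Cd59a, membrane inhibitors of complement, had 1 in every list. Serping1, the inhibitor of C1, also had 1 in each list, at percentiles 88.2 to 95.3 for GFP and Ezh2 and 95.8 and 93.4 for Ezh2-Y726D. C1s1 and C1ra, which encode the proteases that C1q activates, each had 1 region with a peak in all 8 lists. These 6 genes were picked after their values were seen, from 24 of 42 with a peak in every list.

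As a list, though not at every gene, markers of microglia, which the gate on CD90.2 should remove, moved with the complement genes. A peak was present within 1 kb of 17, 16 and 18 of 20 microglial genes with GFP, 18, 18 and 18 with Ezh2, and 11 and 11 with Ezh2-Y726D, and the share of the list's regions with a peak was 55.1% to 69.7%, 65.2% to 74.2%, and 30.3% and 32.6%. Aif1, Tyrobp, Cd68 and Fcer1g (4 of 20) had a peak in the 6 GFP and Ezh2 samples and none with Ezh2-Y726D. That pattern was held by 0.9% of protein-coding genes. Genes of microglia had been seen to lack peaks with Ezh2-Y726D before the lists were chosen, so nothing is read from the shares of this list. Of the 20 genes, 9 had none in both Ezh2-Y726D lists (45%, beside the 23.3% of protein-coding genes). The 23.3% is a poor measure for this, because 20.4% of protein-coding genes had no peak in any list. Of the 9, Fcrls had none in any list, and Tmem119, Siglech, Trem2 and Gpr34 had none in some GFP or Ezh2 lists. The other 11 of the 20 genes had a peak in every list. Among these 11, the highest percentile at the gene with Ezh2-Y726D lay above all other samples at P2ry13, Spi1 and Cd74. It lay below them at Cx3cr1, P2ry12 and Sall1, and at the rest the groups overlapped. Markers of T cells, which carry CD90, moved too. Their regions with a peak were 57.0% to 71.8% with GFP, 73.8% to 79.9% with Ezh2, and 37.6% and 38.9% with Ezh2-Y726D. Of the T cell genes, 4 of 20 (20%: Cd3g, Cd8a, Cd8b1 and Lat) had none in both Ezh2-Y726D lists. The 23.3% of protein-coding genes is a poor measure here as well, for the same reason. All 4 had a peak in the 6 other samples, a pattern held by 0.9% of protein-coding genes. The T cell list shares Thy1, the gene of CD90, with the RGC list.

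Markers of RGCs and of Müller glia and astrocytes did not show this in the share of their regions with a peak. RGC genes had a peak at 52.4% to 62.2% of their regions with GFP, 60.8% to 69.9% with Ezh2, and 65.0% and 71.3% with Ezh2-Y726D, and those of Müller glia and astrocytes at 66.7% to 78.2%, 64.4% to 75.9%, and 70.1% and 79.3%. In neither list was any gene without a peak in both Ezh2-Y726D samples. A region missing with Ezh2-Y726D still lay within 1 kb of 4 of 20 RGC genes (Rbpms, Rbpms2, Slc17a6 and Stmn2). That share of 20% was above the 12.4% of protein-coding genes, but a share of genes takes no account of the number of regions at each gene. Each of the 4 RGC genes had 1 such region, of 143 regions in the list, and 3.61% of all merged regions had the pattern. The share of genes was 1 of 20 (5%) for Müller glia and astrocytes, 10 of 20 (50%) for microglia and 13 of 20 (65%) for T cells. The lists were chosen with earlier results known, and no test was made of these shares. The part of other cell types in the complement result was not tested, and in bulk samples fewer cells of a type and less open chromatin in each cell cannot be told apart.

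**Figure D4:**
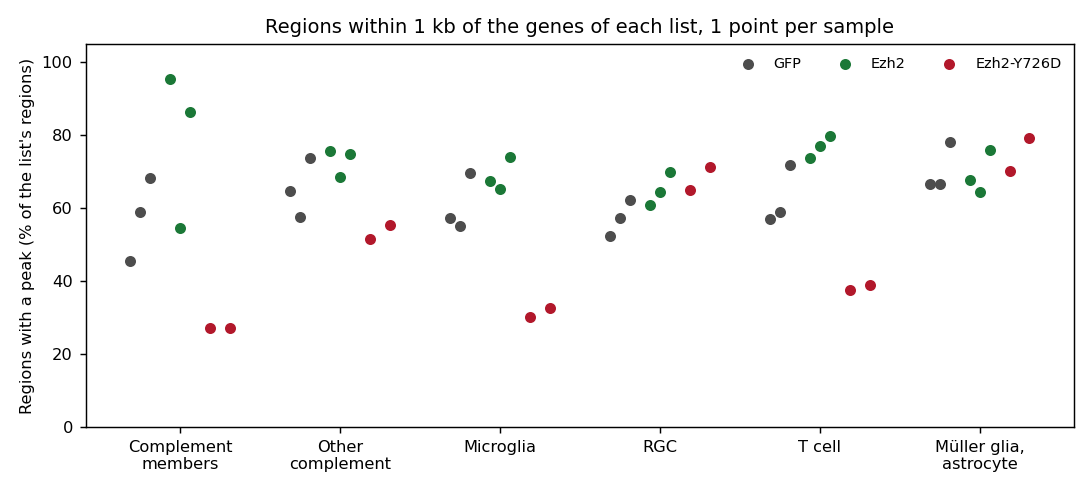
Share of the regions within 1 kb of the genes of each list that had a peak (y axis, %), with 1 point for each sample, coloured by group. The Ezh2-Y726D points stand below all GFP and Ezh2 points for the complement members (27.3% and 27.3%), other complement genes, microglia and T cells, and within or above them for RGCs and for Müller glia and astrocytes.

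For a comparison with other genes, percentiles were summed over regions within 1 kb, with a missing peak counted as 0. The C1q cluster then held 4 regions and not the 10 used above. Among 17411 protein-coding genes with a peak, those whose sums over the 8 samples followed the cluster most closely were Gm1966, Tmem40, Pkd1l2, Lalba and Armc8. Their Pearson r was 0.987, 0.985, 0.984, 0.983 and 0.982. C5ar1 came next among the members, at r = 0.964 and rank 38, followed by C2 at 0.891, C3ar1 at 0.875, C3 at 0.875 and Cfb at 0.714. C4b stood apart at r = -0.81. These correlations describe 8 lists that fall into 3 groups, and the points share library and list length.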

How the data were processed

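ATAC-seq peaks of 8 sorted RGC samples were analysed as deposited. The authors called peaks for each sample separately with MACS2; the submitters' processing notes also name cutadapt, Bowtie2, SAMtools, Picard and deepTools, on GRCm38, and peak names carry tags for a mapping filter, sorting and duplicate removal. The deposited columns hold an integer score, the fold (ratio) of pileup over background, −log10 p and −log10 q, whose lowest values were 1.31 to 1.38. Read depth and thresholds were not given in the sources used here. Peaks sharing at least 1 bp were merged over the lists, and each list kept its highest fold percentile in a region. A region without a peak is below the calling threshold, not shown to be closed. limma 3.58.1 (R 4.3.3) compared Ezh2 with GFP over regions in all 8 lists, with 3 group means and Benjamini-Hochberg adjustment, and was tested on simulated data. Nothing states that replicates came from separate animals, so p-values measure the spread between these samples. Members, lists and comparisons were chosen with earlier results of these data known. All 9 members were named, with each region within 1 kb of one and each region missing with Ezh2-Y726D; other regions and genes were added as context. Gene spans and promoters are from RefSeq (GRCm38.p6), positions count from 1, and start sites were found for 5 of 9 members.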

Additional observations from a re-analysis of the deposited data

How the results depend on the processing

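No member region was called between Ezh2 and GFP in any of the 15 alternative fits. Over all regions, 1106 were higher and 1977 lower with Ezh2. Leaving out 1 sample gave 269 to 916 higher and 669 to 1671 lower. Regions in at least 5 lists gave 1752 higher, and the GFP and Ezh2 samples alone gave 1928 higher and 2213 lower. The cause of these changes in number was not tested. Deviations of same-numbered GFP and Ezh2 samples correlated only weakly, at 0.0054, 0.033 and 0.048, where all GFP and Ezh2 pairs ran from -0.048 to 0.048. Ezh2 samples 2 and 3 correlated best with the GFP sample of their own number, and Ezh2 sample 1 with GFP sample 2. Whether the replicate numbers pair the samples is not settled by these values. With a replicate block by title number, 746 were higher and 1454 lower, and with a replicate block by the number in the peak names 652 and 1305; neither called a member region. Ranking by −log10 p turned 2 differences that were not called, at Skiv2l and Nelfe to 0.14 and upstream of C1qc to 0.10. Leaving out 1 sample also turned uncalled differences, with ranges of -0.156 to 0.0855 at Trip10 near C3, -0.0116 to 0.434 downstream of C1qb, -0.267 to 0.141 upstream of C1qc and -0.220 to 0.145 upstream of C5ar1. The 7 regions missing with Ezh2-Y726D became 4 when peaks had to cover 0.5 of a region and 4 in windows of 1 kb, which hold fewer regions, and ran from 7 to 9 when 1 sample was left out. In the C1q cluster, Ezh2-Y726D minus GFP was -1 region and became -1.83 at −log10 q of at least 5, -1.33 in lists of equal length, -2 within 1 kb and -0.33 at a cover of 0.5, and without GFP sample 3 it was -0.5 and without GFP sample 1 -1.5. Ezh2 minus Ezh2-Y726D was 2 and became 2.83 at that q, 2.67 in lists of equal length, 2.33 at a cover of 0.5 and 2.67 within 1 kb. Ezh2 minus GFP was 1 and became 2 at a cover of 0.5 and 0.67 within 1 kb, and was 0.5 without GFP sample 1 and 1.5 without GFP sample 3. The cause of these shifts was not tested. Over all 40 regions, Ezh2-Y726D minus GFP was -9 and ran from -10.5 to -7.5 when 1 sample was left out, and Ezh2 minus GFP was 4.33 and ran from 2 to 7. Without read counts, a weak peak below the threshold cannot be told from closed chromatin.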
